A study of Ovis aries with 3 samples.

Results

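Keratinocytes of the rumen lining that carried KRT15 and almost no mitotic transcripts were compared between alfalfa hay offered beside milk and milk only. The material was rumen epithelium of Hu sheep, a Chinese breed, at 42 days of age, and RNA was counted in single cells with droplet libraries. Every group drank milk, alone or with alfalfa hay or a concentrate starter added, and each diet gave 1 library. The labels name no allele, transgene or drug, and the number of animals behind a library is not given in the sources used here. A barcode was kept with at least 500 genes, under 20% of its UMIs (counted RNA molecules) from 13 mitochondrially encoded genes and at least 5 KRT15 UMIs. It also had at most 1 summed UMI of the mitotic genes TOP2A, CENPF, NUSAP1, TPX2 and ASPM, and none of PTPRC, COL3A1, PECAM1 and C1QA, which mark leukocytes, fibroblasts, endothelium and macrophages. KRTDAP, A2ML1 and KRT36, transcripts of differentiating keratinocytes, summed to at most 2 UMIs. These limits kept 6789 of the 25789 barcodes of the series, namely 1809 of 7032 with milk only and 4980 of 9543 with hay. The same limits kept 3191 of 9214 barcodes of the concentrate library, whose levels are given beside the comparison. The levels of the selection genes chose the cells and are not results.

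The rumen is lined by a stratified squamous epithelium in which basal keratinocytes divide on the basement membrane and their progeny move up, differentiate and cornify. The basal and suprabasal layers take up short-chain fatty acids made by microbes from plant material, and oxidise butyrate to the ketone bodies acetoacetate and beta-hydroxybutyrate. The milk-fed lamb has a small rumen of low fermentation, and solid feed is known to bring papilla growth and ketogenic capacity. Keratinocytes also answer injury, cytokines and handling with immediate early genes, short-lived transcripts such as FOS, JUN and ATF3 that are induced within minutes.

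The kept cells held 21563459 UMIs with milk only and 29778680 with hay, and cell depth differed between the libraries. Medians were 11036 UMIs and 1742 genes a cell with milk only, against 5627.5 UMIs and 1079.5 genes with hay. The median mitochondrial share was 6.62% and 9.84%. Of the barcodes, 17 sequences occurred in both libraries, 1 of them among the kept cells. With no replicate library no difference has a replicate check and no test was made: diet, animal and library preparation cannot be told apart, and every interval below is at 95% and covers counting error only.

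The keratinocyte label held. KRT17, a keratin of basal and activated keratinocytes, stood at 1137 CPM (UMIs per 1000000 UMIs of the kept cells) with milk only and 999.8 CPM with hay. The hemidesmosome genes ITGA6 (163 and 156 CPM) and COL17A1 (125 and 85.8 CPM) and the basal transcription factor TP63 (52.9 and 37.4 CPM) were detected with both diets. Among markers of other cells not used in the selection, CD3E, CDH5 and MLANA had 0 UMIs in both libraries, COL1A1 had 3 and 1 and VWF had 43 and 39. The lists of T or NK cell, macrophage, endothelial, smooth muscle and melanocyte or neural markers summed to between 2.18 and 4.31 CPM with milk only and between 0.739 and 3.73 CPM with hay. The fibroblast markers summed to 242.5 and 3.86 CPM, nearly all from DCN with milk only, and the neutrophil markers to 166 and 25.1 CPM. Of the neutrophil markers only S100A12 and MMP9 reached 10 CPM in either library, and they went opposite ways. S100A12 was lower with hay (log2 ratio, hay over milk only, -3.85) and MMP9 higher (2.21). The part of such cells in the results was not tested. The label "non-cycling" held for mitosis only. After thinning each cell to 2000 UMIs, 7.68% of milk-only and 12.1% of hay cells still had at least 3 UMIs of S phase genes, against 31.9% and 22.4% of the mitotic cells left out by the rule. For other G2 and mitosis genes the shares were 2.09% and 2.77%, against 73.1% and 68.8%. The cells are therefore called KRT15-positive keratinocytes here.

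Genes were taken as measured from 10 CPM upward in either diet, and as called where hay and milk only differed at least 2-fold with an interval that excluded equal levels. Of 4530 measured genes, 92 were higher with hay (2.03%) and 514 lower (11.3%). The counts of called genes in the lists below stand beside these shares. Differences of at least 4-fold were seen for 21 genes in the higher and 180 in the lower direction. The median log2 ratio, hay over milk only, was -0.18. Scaling by the median of ratios moved it to 0.02 and gave 141 higher and 373 lower genes, so that the lower share of the called genes went from 84.8% to 72.6%. Of the 606 called genes 141 lie on the 43 gene lists used here, and 94 have no symbol in the files.

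**Figure D1:**
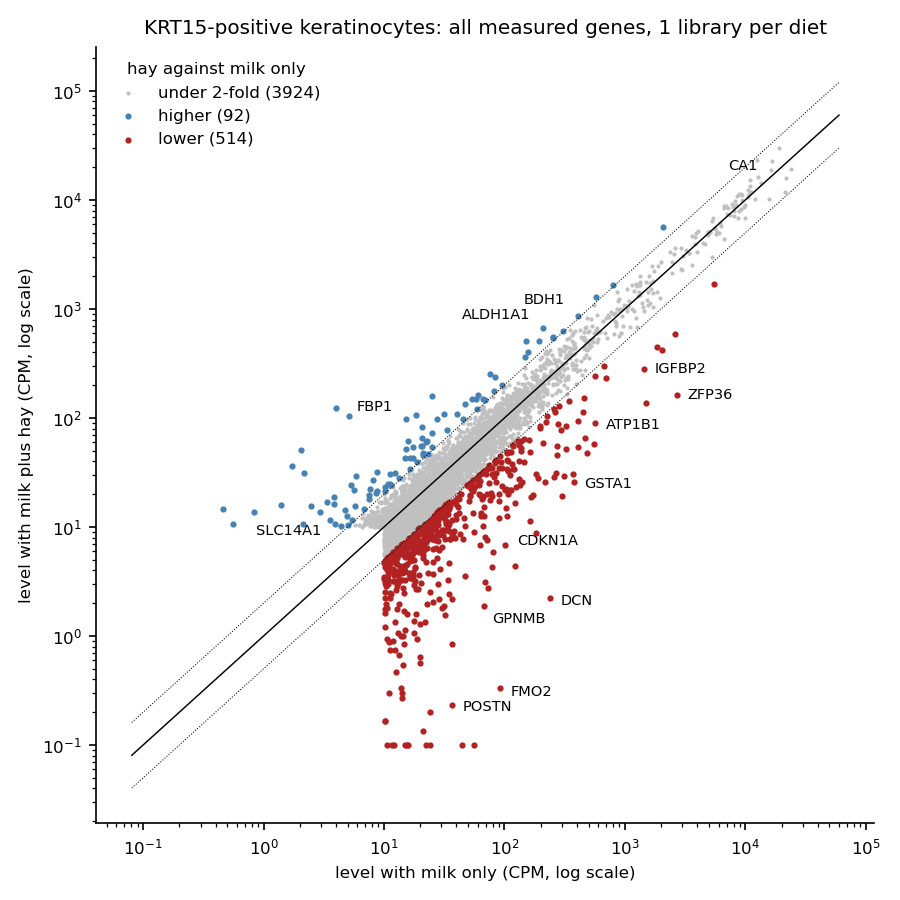
Level of each of 4530 measured genes with milk only (x axis) and with milk plus hay (y axis), in CPM on log scales; the solid line marks equal levels, dotted lines 2-fold, and genes with under 3 hay UMIs are drawn at the level of 3. The 514 lower genes reach far below the diagonal (FMO2 at 91.8 against 0.336 CPM), and the 92 higher genes lie mostly close to the 2-fold line.

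Several enzymes of butyrate and propionate use were higher with hay, while most of their list lay under 2-fold. BDH1 (ENSOARG00000020383), which interconverts acetoacetate and beta-hydroxybutyrate, stood at 406 CPM (398 to 415) and 855 CPM (844 to 865), 2.10-fold higher (2.05 to 2.16). HADH, the short-chain hydroxyacyl-CoA dehydrogenase, was 2.68-fold higher (2.42 to 2.97), from 22.4 to 59.8 CPM. PCCA, the propionyl-CoA carboxylase subunit that opens the propionate pathway, was 2.17-fold higher (2.06 to 2.29), from 81.4 to 177 CPM. ACADS, which begins butyryl-CoA oxidation, had a log2 ratio of 1.07. Of 15 measured genes of the list, 5 passed 2-fold higher, these 4 among them, and 0 passed 2-fold lower. The other 10 lay under 2-fold, and 3 of the 15 were below 0, the lowest being the cytosolic thiolase ACAT2, a cholesterol pathway member as well, at -0.76. The list median was 0.78 against -0.18 for all measured genes. In cells with a mitochondrial share of 5% to 10%, a range chosen after the data had been seen, BDH1 (0.95) and PCCA (0.86) went under 2-fold. In the concentrate library BDH1, HADH and PCCA stood at 527, 46.4 and 166 CPM, each between the other diets.

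Gluconeogenic genes were called higher while the shared and glycolytic steps were not. FBP1 (ENSOARG00000008650), the fructose bisphosphatase of liver type, stood at 15.2 CPM (13.6 to 16.9) with milk only, 97.1 CPM (93.6 to 101) with hay and 41.9 CPM with concentrate, and was 6.4-fold higher with hay (5.71 to 7.2). Among genes with a symbol and at least 50 CPM in the higher library, this was the highest ratio. FBP2, the muscle-type paralogue, was 2.47-fold higher (2.37 to 2.57), from 148 to 365 CPM. PCK2, the mitochondrial phosphoenolpyruvate carboxykinase, was 3.10-fold higher (2.77 to 3.47), from 17.5 to 54.3 CPM. The other 7 of 10 measured genes of glycolysis and gluconeogenesis lay under 2-fold and below 0, down to -0.64 for PFKL, the liver-type phosphofructokinase.

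Detoxifying enzymes had 5 of 13 measured genes called higher, against 1 lower, beside 2.03% higher and 11.3% lower among all measured genes. ALDH1A1, an aldehyde dehydrogenase that also makes retinoic acid, stood at 208 CPM (202 to 214) and 676 CPM (666 to 685), 3.25-fold higher (3.14 to 3.36). EPHX2, the soluble epoxide hydrolase, was 3.57-fold higher (3.26 to 3.90), MAOA, a monoamine oxidase, 2.88-fold (2.73 to 3.03), and the flavin monooxygenase FMO5 4.89-fold (3.87 to 6.23), the last at only 3.85 and 18.8 CPM. AKR1D1, a steroid reductase, was 3.67-fold higher (3.13 to 4.31) in the summed counts, a log2 ratio of 1.87. It went under 2-fold where cells were weighted equally, at 0.97 with the mean of per-cell CPM and 0.69 with cells thinned to 2000 UMIs. The paralogue FMO2 (ENSOARG00000012434) was the exception in the list. It had 1979 UMIs, or 91.8 CPM (87.8 to 95.9), in the milk-only cells against 10 UMIs, or 0.336 CPM (0.161 to 0.618), in the hay cells, and was 273-fold lower (148 to 571). With concentrate FMO2 stood at 1.57 CPM.

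Transporters divided. SLC14A1, which carries urea, was 16.5-fold higher (10.3 to 28.2), at 0.835 and 13.8 CPM, and the carbonic anhydrases CA2 and CA12, which supply bicarbonate and protons for fatty acid exchange, were 5.07-fold (3.95 to 6.58) and 2.16-fold (2.09 to 2.23) higher. CA12 went under 2-fold in cells with a mitochondrial share under 10% (0.93) and in cells with at least 20 KRT15 UMIs (0.97). ATP1B1, the beta subunit of the sodium pump, was 6.35-fold lower (6.08 to 6.62), at 568 CPM (558 to 578) and 89.6 CPM (86.2 to 93.0), and the water channel AQP5 stood at 21.1 and 0.134 CPM, the latter from 4 UMIs. With concentrate ATP1B1 stood at 137 CPM, nearer to hay, and CA2 at 3.57 CPM, nearer to milk only. The list of fatty acid, ion and water transport had 2 higher and 2 lower genes among 10 measured. Among all measured genes 2.03% were higher and 11.3% lower. Of 14 genes of urea, ammonia and amino acid handling 3 were higher, with AHCYL2, a regulator of bicarbonate transport from the adenosylhomocysteinase family, at 4.03-fold (3.64 to 4.47), and 3 lower, with the polyamine acetyltransferase SAT1 at 7.46-fold (6.66 to 8.38).

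Chaperones were shifted upward as a list with few members past 2-fold. Of 15 heat shock genes 14 had a log2 ratio above 0, and the median was 0.45. HSPA6, a strictly stress-inducible HSP70, was 2.70-fold higher (2.43 to 3.01), and HSPH1, an HSP110 nucleotide exchange factor, 2.04-fold (1.92 to 2.18). HSPA6 went under 2-fold in cells of 4000 to 12000 UMIs (0.92), and HSPH1 without cells of at least 2 HSPA6 UMIs (0.98). HSPB1, a small heat shock protein, had the lowest ratio, -0.61. Of 7 cholesterol synthesis genes only NSDHL passed 2-fold, at 2.10-fold higher (1.80 to 2.46), and not in cells with a mitochondrial share under 10% (0.88). The list median was 0.68. The isomerase IDI1 of that list stood at 101 CPM with milk only, 193 CPM with hay and 53.7 CPM with concentrate.

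Other genes among the 15 highest ratios were MACC1, a regulator of MET expression (3.94-fold, 3.51 to 4.44), the peroxisomal thioesterase ACOT8 (3.47-fold, 3.19 to 3.77), the nucleobindin NUCB2 (3.41-fold, 3.02 to 3.85), the lipopolysaccharide co-receptor LY96 (3.20-fold, 2.89 to 3.56), the glutaredoxin GLRX (2.85-fold, 2.66 to 3.05), the RNase H2 subunit RNASEH2C (2.75-fold, 2.58 to 2.94) and the acyl-CoA dehydratase HACD3 (2.69-fold, 2.42 to 2.99). For several of the higher genes, leukocytes carried UMIs as often as keratinocytes or more often. In the hay library 28 barcodes with at least 2 PTPRC UMIs, read as leukocytes, had a median of 3944 UMIs. After thinning to 2000 UMIs, LY96 had a UMI in 39.3% of them against 12.7% of the keratinocytes, NUCB2 in 25% against 8.55%, HSPA6 in 39.3% against 8.57% and RNASEH2C in 50.0% against 24%. Leukocytes can use such genes themselves, so these shares do not measure background. In the hay library 402 keratinocytes (8.07%) held at least 2 HSPA6 UMIs. ALDH1A1 (68.5% of keratinocytes, 28.6% of leukocytes), FBP1 (16.7% and 7.14%) and EPHX2 (15.7% and 0%) were seen more often in keratinocytes.

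**Figure D2:**
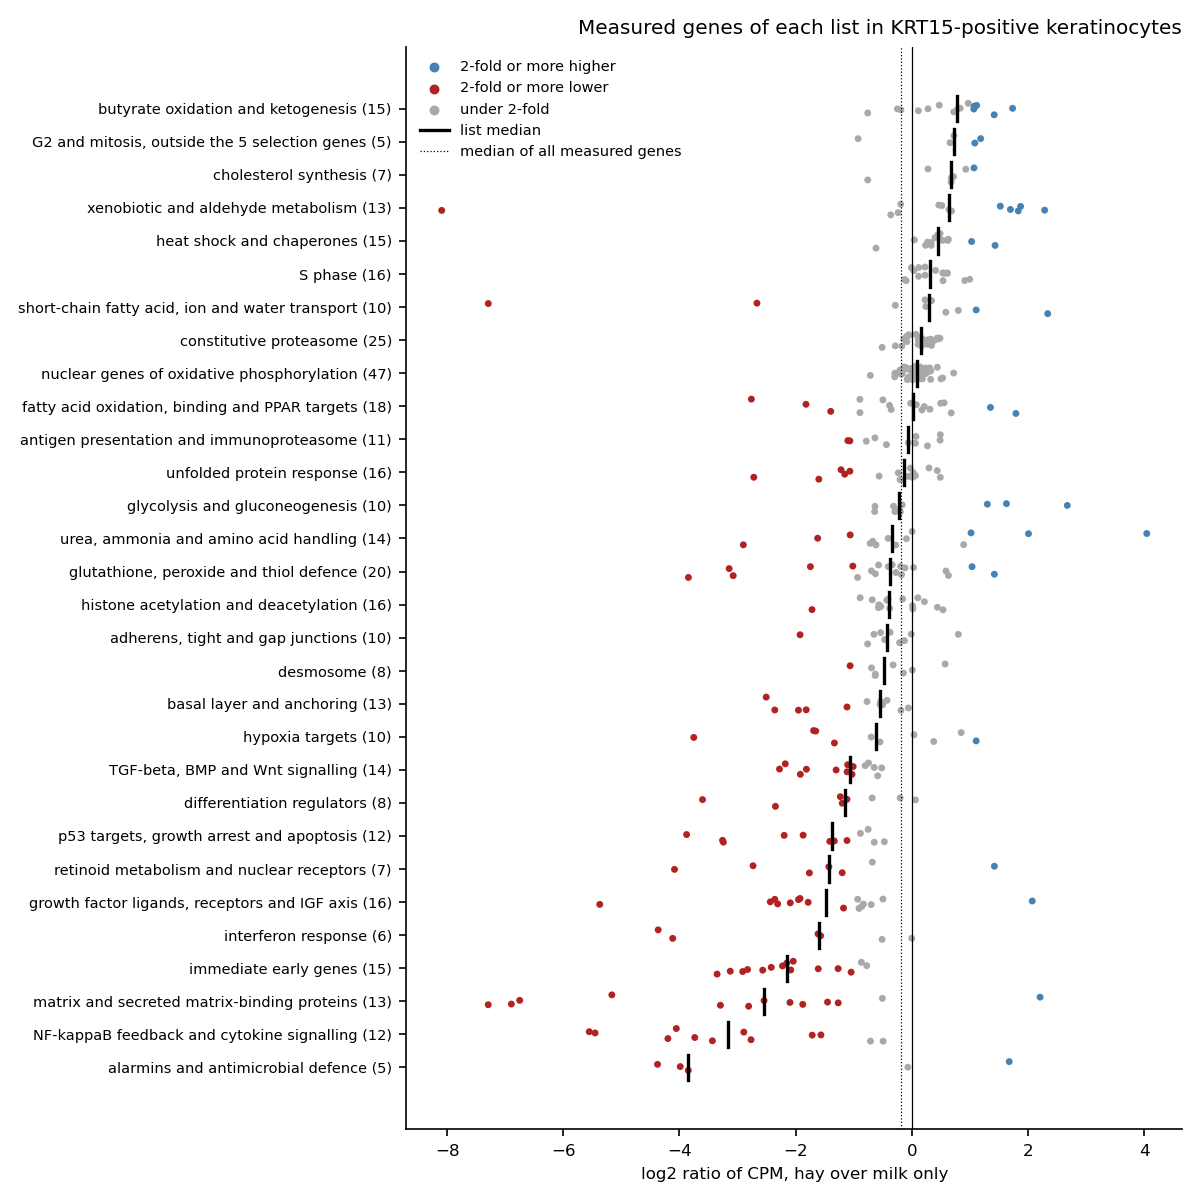
Log2 ratio of CPM, hay over milk only, for the measured genes of each list with at least 5 of them (number in brackets); each point is a gene, heavy bars are list medians and the dotted line is the median of all measured genes, -0.18. Butyrate and ketogenesis genes have the highest median, 0.78, and alarmins, NF-kappaB feedback and matrix genes the lowest, -3.85, -3.16 and -2.54.

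Immediate early genes were lower with hay almost throughout. Of 15 measured members 13 were called lower and 0 higher, with a median log2 ratio of -2.15. ATF3, a stress-induced transcription factor, stood at 484 CPM (475 to 494) with milk only, 47.5 CPM (45.0 to 50.0) with hay and 70.0 CPM with concentrate, 10.2-fold lower with hay (9.66 to 10.8). The antiproliferative genes BTG2 and BTG1 were 8.72-fold (7.98 to 9.55) and 7.52-fold (7.13 to 7.94) lower, and KLF10, a TGF-beta inducible repressor, 7.10-fold (6.76 to 7.45). FOSB (-0.77) and FOSL2 (-0.87) lay under 2-fold. The members with a row in the files summed to 6986 CPM with milk only, 1542 CPM with hay and 1928 CPM with concentrate, so that milk only stood apart from both other diets.

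Feedback genes of NF-kappaB and cytokine signalling summed to 4903, 507 and 592 CPM in the same order of diets. Of 12 measured members 10 were called lower and 0 higher, with a median of -3.16. ZFP36 (ENSOARG00000006068), which destabilises cytokine messenger RNAs, stood at 2709 CPM (2687 to 2731) with milk only, 163 CPM (159 to 168) with hay and 253 CPM with concentrate, 16.6-fold lower with hay (16.1 to 17.1). TNFAIP3, the deubiquitinase A20, was 18.4-fold lower (15.3 to 22.2), the adhesion molecule ICAM1 47.0-fold (24.4 to 104) and the transcription factor IRF1 43.8-fold (29.5 to 68.1). ICAM1 and IRF1 rest on 9 and 25 hay UMIs. Of 6 measured interferon response genes 4 were lower, among them the ubiquitin-like ISG15, 20.6-fold (15.3 to 28.4), and IRF7, 17.3-fold (11.5 to 27.2).

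Growth arrest genes were mostly lower, and the unfolded protein response was divided. Of 12 measured p53, arrest and apoptosis genes 8 were called lower and 0 higher, with a median of -1.37. CDKN1A, the cyclin-dependent kinase inhibitor p21, stood at 101 CPM (96.4 to 105) and 6.85 CPM (5.94 to 7.86), 14.7-fold lower (12.7 to 17.0), and the DNA damage genes GADD45B and GADD45A were 9.57-fold (9.09 to 10.1) and 9.47-fold (8.23 to 10.9) lower. Of 8 measured regulators of differentiation 5 were lower, with BHLHE40, a clock-linked repressor, at 12.2-fold (11.3 to 13.0) and KLF4, a factor of barrier formation, at 5.09-fold (4.66 to 5.56). In the unfolded protein response 5 of 16 genes were lower and 11 lay under 2-fold, with DDIT3 at 6.59-fold (5.81 to 7.48), ATF4 at 3.03-fold (2.94 to 3.12) and the chaperone HSPA5 at 2.22-fold (2.17 to 2.28), the last under 2-fold with median-of-ratios scaling (-0.97). That list's median, -0.13, was close to the median of all genes and turned to 0.05 under median-of-ratios scaling. RCAN1, a calcineurin inhibitor, RND1, a small GTPase, and ITPKC, an inositol trisphosphate kinase, were 27.7-fold (23.3 to 33.3), 26.5-fold (21.2 to 33.5) and 22-fold (17.9 to 27.5) lower. ADM, the peptide adrenomedullin, was 13.5-fold lower (11.5 to 15.8).

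Binding proteins of insulin-like growth factors, which hold these growth factors and tune access to their receptors, were lower with hay. IGFBP2 (ENSOARG00000019417) stood at 1434 CPM (1419 to 1451) with milk only, 280 CPM (274 to 286) with hay and 893 CPM with concentrate, 5.13-fold lower with hay (5.00 to 5.25). IGFBP5 stood at 274, 55.4 and 318 CPM and was 4.96-fold lower with hay (4.69 to 5.24), while IGFBP6 stood at 323, 83.6 and 117 CPM and was 3.86-fold lower (3.69 to 4.05). IGFBP7 was 41.4-fold lower (22.2 to 87.3), from 300 to 10 UMIs. For IGFBP2 and IGFBP5 the hay library stood apart from both others, whereas for IGFBP6 concentrate was nearer to hay. Of 16 measured growth factor and IGF axis genes 9 were lower and 1, the parathyroid hormone-like peptide PTHLH, was higher (log2 ratio 2.08). The EGF family ligand AREG was 5.41-fold lower (5.00 to 5.86).

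TGF-beta, BMP and Wnt genes were lower in 9 of 14 measured cases and higher in 0, with a median of -1.07. BMP4, a secreted morphogen, was 4.85-fold lower (3.88 to 6.10), the co-receptor TGFBR3 4.52-fold (3.60 to 5.73) and the Wnt inhibitor SFRP1 3.51-fold (3.19 to 3.88). SFRP1 stood at 66.9, 19.0 and 59.8 CPM with milk only, hay and concentrate. The transcription factor SOX6 had the same shape at 33.0, 9.37 and 32.0 CPM, and was 3.52-fold lower with hay (3.06 to 4.06).

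Matrix and matrix-binding proteins were lower with hay in 11 of 13 measured cases and higher in 1, with a median of -2.54. DCN (ENSOARG00000015737), the collagen-binding proteoglycan decorin, stood at 239 CPM (232 to 245) with milk only, 2.22 CPM (1.71 to 2.82) with hay and 25.8 CPM with concentrate, 108-fold lower with hay (84.6 to 140). POSTN, the matricellular protein periostin, was 157-fold lower (75.8 to 391) and the collagenase MMP13 119-fold (54.3 to 326), on 7 and 6 hay UMIs. GPNMB, a transmembrane glycoprotein, was 35.9-fold lower (27.5 to 47.7). The gelatinase MMP9, which is also on the list of neutrophil markers, was the higher gene, 4.63-fold (3.55 to 6.12), at 2.97 and 13.7 CPM. DCN is also a fibroblast marker, and it made up 239 of the 242.5 CPM that the 13 fibroblast markers summed to with milk only, with 7 of the 13 at 0 and COL1A1 at 3 UMIs. After thinning, DCN had a UMI in 31.4% of milk-only keratinocytes and in 4.31% of 378 milk-only leukocytes, whose median was 6285 UMIs, FMO2 in 16.7% and 1.08%, GPNMB in 9.04% and 1.08%, and IGFBP2 in 85.6% and 13.2%.

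The calprotectin genes were lower with hay, but leukocytes carried them at similar shares. S100A8 and S100A9, calcium-binding alarmins, were 15.9-fold (14.5 to 17.3) and 20.8-fold (18.3 to 23.7) lower with hay, and S100A12 14.4-fold (12.9 to 16.2). With milk only a thinned S100A8 UMI was seen in 28.9% of keratinocytes and 25.9% of leukocytes, S100A9 in 22.4% and 22.6%, and S100A12 in 17.9% and 18.9%. Neutrophils make these genes as well, and how much of them the keratinocytes made was not tested. Milk-only cells with at least 10 UMIs of KRTDAP, A2ML1 and KRT36, left out by the rule, held S100A8 at 5971 CPM. The cornification protease inhibitor SPINK5, 4.79-fold lower (4.43 to 5.19), was likewise seen in 10.8% of milk-only keratinocytes and 9.43% of leukocytes. Before thinning, a differentiation UMI was present in 44.5% of kept milk-only, 11% of kept hay and 6.52% of kept concentrate cells. Median depths were 11036, 5627.5 and 7453 UMIs, and the part of depth in these shares was not tested. Without cells that carried a differentiation UMI the log2 ratio of S100A8 was -3.79 against -3.99 in all kept cells. SPINK5 was the only measured gene of 32 on the granular and cornified list, and LYPD3 and FABP5 the only measured genes of 20 on the spinous list, neither past 2-fold.

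Glutathione and metal defence was mixed, with 5 of 20 genes lower and 2 higher, beside 11.3% and 2.03% of all measured genes. GSTA1, a glutathione transferase, was 14.4-fold lower (13.4 to 15.5), GSTM3 8.43-fold (7.81 to 9.11), the metallothionein MT2A 8.84-fold (8.10 to 9.67) and GCLC, the catalytic subunit of the first enzyme of glutathione synthesis, 3.35-fold (3.04 to 3.70). The membrane-bound transferase MGST3 went the other way, from 2089 to 5601 CPM. For GSTA1 the thinned share of milk-only cells was 21.6% against 13.2% of leukocytes, and for MT2A 23.1% against 5.39%. Retinoid genes were lower in 5 of 7 cases, with the chemerin gene RARRES2 at 17.0-fold (13.2 to 22.2), CYP27A1, a sterol hydroxylase, at 6.65-fold (5.29 to 8.43) and the nuclear receptor RARG at 2.69-fold (2.40 to 3.02). CYP26A1, which degrades retinoic acid, was the higher gene of that list, at a log2 ratio of 1.42. In fatty acid handling 3 of 18 genes were lower and 2 higher, again beside 11.3% and 2.03% of all measured genes. PDK4, a kinase that blocks pyruvate oxidation, was 6.78-fold lower (6.29 to 7.31). The thioesterase THEM5 stood at 120, 33.8 and 409 CPM with milk only, hay and concentrate, and its log2 ratio of hay over milk only was -0.71 in cells of 4000 to 12000 UMIs. Of 10 hypoxia targets 4 were lower, among them HIF1A at 3.23-fold (2.76 to 3.78), and CA12 was higher.

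**Figure D3:**
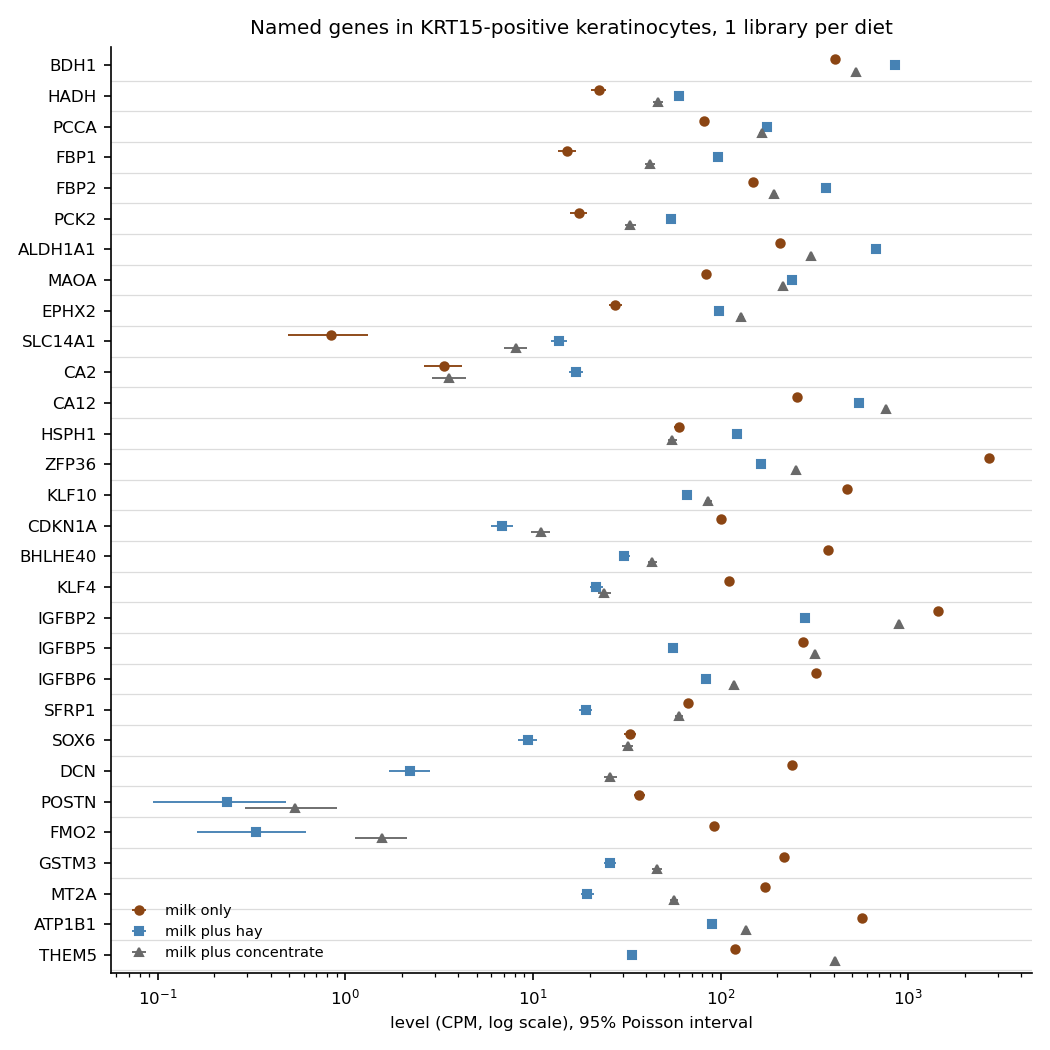
Level of 30 named genes in KRT15-positive keratinocytes of each library, in CPM on a log scale with 95% Poisson intervals (counting error only, often narrower than the symbol). ZFP36, CDKN1A and BHLHE40 are high with milk only alone, while IGFBP5, SFRP1 and SOX6 are low with hay alone.

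Basal genes were called lower more often than all measured genes, and desmosomal and junction genes about as often. Of 13 measured basal and anchoring genes 5 were lower and 0 higher, beside 11.3% lower among all measured genes, with a median of -0.55 and none above 0. The 13 and their median include KRT15 (-0.54), which chose the cells and is not a result. It was not among the 5 lower genes. Desmosomal genes were under 2-fold in 7 of 8 cases, and only the cadherin DSG2 was called, 2.09-fold lower (1.86 to 2.35). Its call ended with median-of-ratios scaling (-0.88), with cells of at least 1000 genes (-0.94) and with either change of the totals (-0.97). DSP, which ties desmosomes to keratin filaments, stood at 212, 316 and 600 CPM with milk only, hay and concentrate, and the gap junction gene GJA1 at 50.3, 87.7 and 198 CPM. CLDN4, a tight junction claudin, was the only called gene of 10 junction genes, 3.79-fold lower (3.06 to 4.72). In cells with no ATF3 UMI it was 1.19-fold lower with an interval of 0.82 to 1.72, and the call was lost.

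Large housekeeping groups held no called gene. None of 47 nuclear genes of oxidative phosphorylation passed 2-fold, and their median was 0.08, with extremes of -0.71 for NDUFS3 and 0.72 for NDUFB7, both of complex I. None of 25 constitutive proteasome genes passed it either, with a median of 0.16. Of 16 histone acetylation and deacetylation genes the deacetylase SIRT1 alone was called, 3.29-fold lower (2.87 to 3.77). In cells with no ATF3 UMI its log2 ratio went from -1.72 to -1.01. Antigen presentation held 2 lower genes of 11, ERAP2 and TAPBP, close to the 11.3% lower among all genes, with a median of -0.06. Under median-of-ratios scaling the median turned to 0.12 and both went under 2-fold (-0.92 and -0.88), so that no call was left. The S phase list had 0 of 16 genes past 2-fold and a median of 0.32. Of 5 measured G2 and mitosis genes outside the selection, ANLN and NUF2 were higher, 2.28-fold (1.95 to 2.66) and 2.12-fold (1.72 to 2.64), NUF2 at a log2 ratio of only 0.34 without cells of at least 3 S phase UMIs.

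Several of the lower genes were concentrated in cells that carried ATF3. At least 2 ATF3 UMIs were found in 706 of 1809 milk-only cells (39.0%) and in 292 of 4980 hay cells (5.86%). After thinning, at least 1 ATF3 UMI was found in 32.5% and 5.58% of keratinocytes and in 17.8% and 53.6% of leukocytes. Leukocytes use ATF3 and its companions themselves, so their share does not measure background. In the hay library more cells held at least 2 ATF3 UMIs (292) than exactly 1 (205). The thinned shares of CDKN1A (14.5% of milk-only keratinocytes, 56.6% of milk-only leukocytes), TNFAIP3 (11.2% and 44.5%) and GADD45B (35.5% and 68.7%) were higher in leukocytes, whereas ZFP36 (51.2% and 35.0%), KLF10 (40.8% and 9.97%), RCAN1 (11.3% and 1.89%) and PDK4 (21.2% and 2.43%) were seen more often in keratinocytes. Within the milk-only library, cells with at least 2 ATF3 UMIs held ZFP36 at 5885 CPM and cells with none at 229 CPM. For CDKN1A these levels were 213 and 14.4 CPM, for TNFAIP3 172 and 7.96 CPM, for GADD45B 1152 and 82.1 CPM, for RCAN1 265 and 13.6 CPM, and for AREG 313 and 9.95 CPM. IGFBP2 did not follow the split, at 1310 and 1525 CPM, and CA1 and GSTA1 were lower in the ATF3-carrying cells, at 7381 against 23350 CPM and 124 against 572 CPM. In the hay library the cells with at least 2 ATF3 UMIs held FOS at 3632 CPM against 183 CPM in those with none, and ZFP36 at 1212 against 70.5 CPM. FOS stood at 4056 CPM in the ATF3-carrying milk-only cells.

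The comparison was therefore repeated in the 1028 milk-only and 4483 hay cells without an ATF3 UMI, an alternative chosen after the data had been seen. Their median depths were 10513 and 5615 UMIs, so ATF3 was more easily missed in a hay cell. The part of this in the ratios below was not tested. In these cells 344 genes were lower and 77 higher. Of the 514 lower genes 293 (57.0%) were again called lower, and of the 92 higher genes 70 (76.1%) again higher. Called lower were 2 immediate early genes in place of 13, and 3 NF-kappaB feedback genes in place of 10. ATF3 itself is among the 13, and its loss from the count was fixed by the choice of cells. The log2 ratio of ZFP36 went from -4.05 to -1.70, that of CDKN1A from -3.88 to -1.26, that of BHLHE40 from -3.60 to -1.40 and that of ADM from -3.75 to -0.86. ICAM1 went from -5.55 to -3.21, IRF1 from -5.45 to -2.21, ISG15 from -4.37 to -1.98 and IRF7 from -4.12 to -3.06. Of the other lower interferon response genes IFIH1 went from -1.57 to -0.80 and IFI35 from -1.61 to -1.77. FOS, JUN, AREG and HSPA5 changed sign, to 0.27, 0.17, 0.11 and 0.48. So did FOSB, to 1.28, at only 1.56 CPM with milk only and 3.78 CPM with hay. CA1 and FABP5 turned the other way, to -0.23 and -0.16. BTG2 (-0.96), KLF4 (-0.92), ATF4 (-0.38) and CLDN4 (-0.26) went under 2-fold like ADM. In the matrix list 10 genes were called lower, and DCN (-6.60), FMO2 (-7.60), GPNMB (-5.76), AQP5 (-7.55), RARRES2 (-4.02), GSTM3 (-3.57), MT2A (-3.23), IGFBP5 (-2.54), IGFBP2 (-2.49) and ATP1B1 (-2.35) remained as low as in all cells or nearly so. On the higher side FBP1 (2.33), ALDH1A1 (1.53) and SLC14A1 (3.66) were little altered, BDH1 (0.81), CA12 (0.80) and NSDHL (0.95) went under 2-fold, and HSPA6 went from 1.44 to 2.79.

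**Figure D4:**
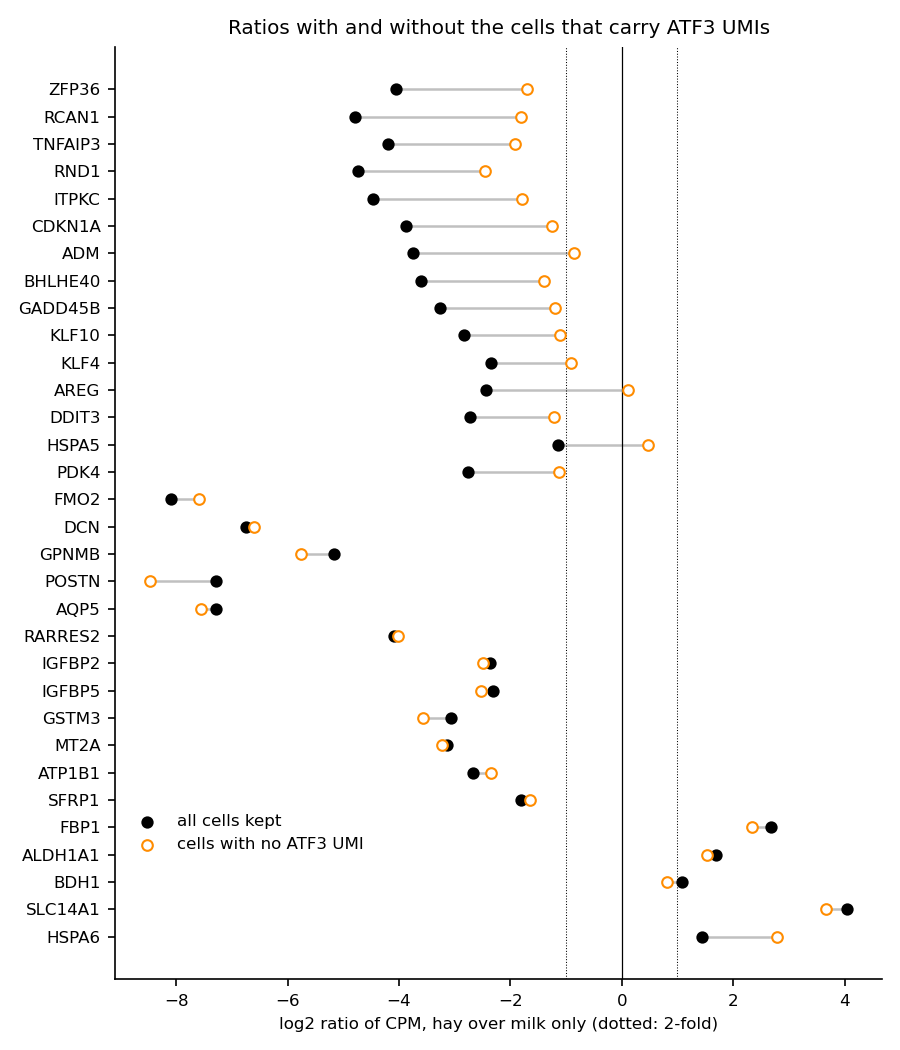
Log2 ratio of CPM, hay over milk only, of 32 named genes in all kept cells (filled) and in cells with no ATF3 UMI (open); dotted lines mark 2-fold. The upper 15 genes, from ZFP36 to PDK4, move toward 0, AREG and HSPA5 past it, while genes from FMO2 to SFRP1 and those higher with hay mostly stay in place.

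Milk-only cells differed widely among themselves in some transcripts. CA1, a carbonic anhydrase abundant in rumen epithelium, had a variance over mean of 65.2 in milk-only and 14.8 in hay cells thinned to 2000 UMIs. The middle 90% of cells ranged from 392 to 67754 CPM of CA1 with milk only (median 4789) and from 4047 to 39749 CPM with hay (median 16301). FABP4, a fatty acid carrier, came next with milk only at 17.0, against 6.69 with hay, followed by FOS (13.0 and 8.13) and ZFP36 (12.2 and 3.71), whose mean levels also differed between the diets. For KRT15 the values were 4.85 and 4.75. Summed over cells, CA1 hardly differed, at 16202 and 18989 CPM, although the median cell differed more.

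Levels in the milk-only cells varied with the depth of the cell in no simple order. Cells of under 4000 UMIs (191 milk only, 745 hay), 4000 to 8000 (256 and 3566), 8000 to 12000 (582 and 568) and at least 12000 (780 and 101) were summed separately. CA1 stood at 46356, 8950, 5979 and 20345 CPM in these bins with milk only, and at 16534, 18061, 22633 and 22920 CPM with hay, so its log2 ratio was -1.49, 1.01, 1.92 and 0.17. FABP5, an epidermal fatty acid carrier, changed sign as well, from -0.77 under 4000 UMIs to 1.66 at 8000 to 12000. BDH1 was higher with hay in every bin, by log2 ratios of 0.36, 1.99, 2.26 and 0.92, and ALDH1A1 by 0.90, 2.17, 2.37 and 1.57. FBP1 had ratios of 0.58, 3.64, 3.69 and 2.5. The hay level of ALDH1A1 lay between 630 and 735 CPM in all bins, and the milk-only levels of CA1, BDH1 and ALDH1A1 were lowest in the middle bins. At least 2 ATF3 UMIs were carried by 1.57%, 30.5%, 51.0% and 42.1% of the milk-only cells from the shallowest to the deepest bin. The part of depth and of ATF3-carrying cells in these levels was not tested apart. ZFP36 was lower by -0.88 in the shallowest bin and by -4.29, -5.33 and -4.37 in the others, whereas IGFBP2 (-1.70 to -2.72) and DCN (-5.33 to -8.15) were low with hay in all 4. Of the named genes called higher 29 of 31 were higher with hay in every bin, and of those called lower 65 of 74 were lower. The exceptions were AKR1D1 and NUF2 among the former, and ADM, CLDN4, KLF4, ICAM1, GADD45B, SAT1, CYP27A1, AREG and MMP13 among the latter.

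**Figure D5:**
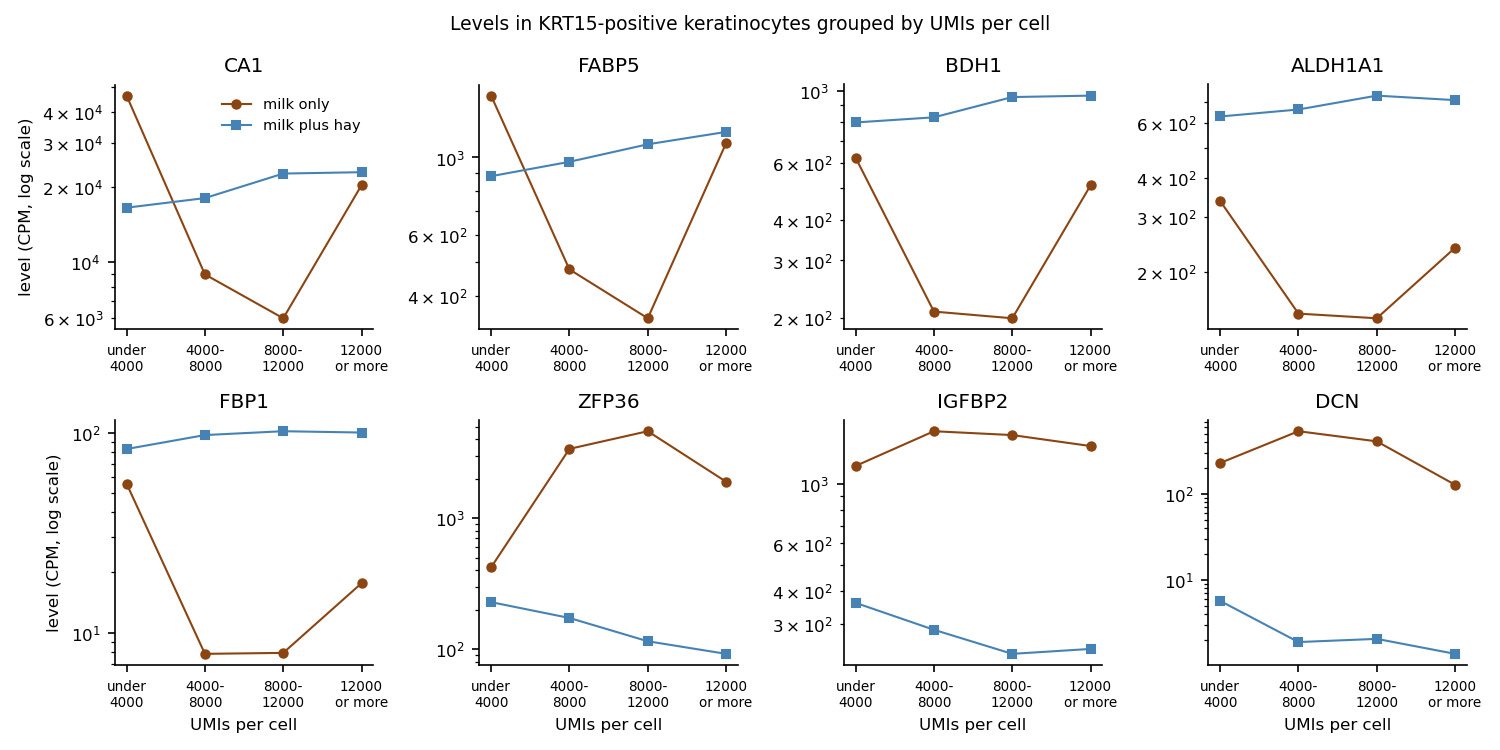
Level of 8 genes (CPM, log scale) in KRT15-positive keratinocytes grouped by UMIs per cell, for milk only and milk plus hay. With milk only CA1, FABP5, BDH1, ALDH1A1 and FBP1 dip between 4000 and 12000 UMIs and ZFP36 peaks there, while the hay levels of BDH1, ALDH1A1 and FBP1 change little.

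The mitotic cells that the rule left out (at least 4 UMIs of the 5 mitotic genes; 387 with milk only, 1028 with hay) give a comparison in other cells of the same libraries. No gene called in the KRT15-positive cells and named here was at least 1.5-fold the opposite way in them. The log2 ratios were 0.78 for BDH1, 1.58 for HADH, 2.40 for FBP1 and 1.32 for ALDH1A1. On the lower side they were -7.19 for FMO2, -4.87 for DCN, -3.50 for ZFP36, -2.82 for CDKN1A, -2.21 for IGFBP2 and -2.61 for IGFBP5. These cells come from the same animals and preparations and are no replicate.

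Genes without a symbol made up 742 of the measured genes, of which 22 were higher and 72 lower. ENSOARG00000009066 stood at 3.99 CPM with milk only, 124 CPM with hay and 78.3 CPM with concentrate, 31-fold higher with hay (25 to 38.9). ENSOARG00000017399 was 24.9-fold higher (18.5 to 34.5), at 2.04 and 50.9 CPM. ENSOARG00000019479 had 1215 UMIs with milk only (56.3 CPM) and 0 with hay and with concentrate. With 3 counts put in place of 0 it was 559-fold lower with hay, a value that is no lower bound. ENSOARG00000011169 was 10.6-fold lower (9.87 to 11.4), and within the milk-only library it stood at 637 CPM in cells with at least 2 ATF3 UMIs and 60.7 CPM in cells with none.

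Ratios of cells just inside and just outside the selection limits are given as a description. For cells with 5 to 7 KRT15 UMIs the log2 ratio of ZFP36 was -5.02, and for those with 2 to 4 it was -4.38. At 1 mitotic UMI it was -3.97 and at 2 it was -4.01. FBP1 had 2.55 with 2 UMIs of the differentiation genes and 1.74 with 3, and 2.25 with a mitochondrial share of 18% to 20% and 2.91 at 20% to 22%, the last on 7 milk-only UMIs. It had 2.45 inside and 0.91 outside the KRT15 limit, where the milk-only cells held 4 and 8 FBP1 UMIs.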

How the data were processed

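Per the labels' protocols, rumen tissue was cut, digested repeatedly in warm trypsin-EDTA, filtered and passed to droplet capture. The authors deposited matrices of raw UMI counts, which Cell Ranger makes for every gene and barcode. Its version is 3.1 per the submitters' processing notes and 5.0.0 per the file headers, and which applies is not known. For genome build, annotation release, strand setting and barcode selection, the entry is: not given in the sources used here. The lowest UMI count of a barcode was 727 with milk only and 2263 with hay. Of 26247 genes 14653 had a symbol held by 1 identifier. None of the identifiers matched the RefSeq table (0 matches), so no coordinates or sequences are given. How reads of paralogues were divided is not known.

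Cells were chosen by the rule in the report, with no clustering, no doublet caller and doublets kept. Counts were summed over the cells of a library and scaled to 1000000. Levels carry exact Poisson and ratios exact conditional binomial intervals at 95%, for counting error only. A level of 0 was given a floor of 3 counts per library. Thinned cells were drawn to 2000 UMIs without replacement, leaving out 39 shallower milk-only cells. On simulated counts the calls recovered 133 of 133 genes changed at least 2.5-fold and marked 0 of 3923 unchanged genes. Both simulated libraries were drawn from the same pooled profile, with the set changes and counting error only. The result therefore says nothing on differences between animals, preparations or cell states. The members, the gene lists and the limits were chosen with earlier results of these data known. Named genes were the 15 highest and 15 lowest ratios among genes with a symbol and at least 50 CPM in the higher library, up to 4 genes with the largest ratios per list and 2 unnamed genes each way, leaving out ribosomal protein, mitochondrially encoded and selection genes. ACADS, PTHLH, CYP26A1, MGST3, FOS, JUN, FOSB, FOSL2, HSPB1, DSP and the genes of high cell-to-cell variation were named besides, after their values were seen. Some genes that this rule names are not reported here. Alternatives changed the scaling, the level from which a gene was measured, the weight and depth of cells and each selection limit. The scripts ran under Python 3.11.15 with pandas 2.3.3, matplotlib 3.10.9, scipy 1.17.1 and numpy 2.4.6.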

Additional observations from a re-analysis of the deposited data

How the results depend on the processing

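No paired analysis was possible because each diet had 1 library. Across 20 alternatives the count of genes higher with hay, 92 as reported, was 141 with median-of-ratios scaling, 277 with genes measured from 1 CPM, 45 from 50 CPM, 276 in cells of 4000 to 12000 UMIs and 166 with totals taken without the 50 most abundant genes. The count of lower genes, 514 as reported, was 1590 from 1 CPM and 154 from 50 CPM. It was 746 in cells of 4000 to 12000 UMIs, 628 after thinning to 2000 UMIs and 681 without the 50 most abundant genes in the totals. With median-of-ratios scaling it was 373, and in cells with no ATF3 UMI 344. The median log2 ratio, -0.18 as reported, was 0.017 with median-of-ratios scaling, -0.29 from 1 CPM and -0.039 from 50 CPM. Fewer or more genes were tested under the CPM limits, and for the others the cause was not tested. Under the 50 CPM limit the medians of the interferon (0.0012), hypoxia (0.38) and G2 and mitosis (-0.10) lists changed sign, with few genes left, and in cells of 4000 to 12000 UMIs so did that of the neutrophil markers (0.51). Without cells of at least 2 ATF3 UMIs the log2 ratios of HSPA5 and AREG were 0.34 and 0.014, and in cells with no ATF3 UMI 0.48 and 0.11. The ratio of ATF3 turned to 0.29 in the former, but ATF3 chose those cells and this value is not a result. Of 105 named genes past 2-fold, 30 moved by over 1.5-fold in cells of 4000 to 12000 UMIs, 37 in cells with no ATF3 UMI, 8 after thinning and 10 with a mitochondrial share under 10%, and no other changed direction. The absence of replicate libraries, the unequal cell depth and the 10 CPM limit bound what these values show.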
